A study of Mus musculus with 284 samples.

Results

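The genes described here encode the enzymes that use glutathione, thioredoxin and NADPH to remove peroxides and electrophiles, together with the regulators of that system. They are 34 genes listed by name for their place in this system, out of 54247 gene IDs in the count table; the rule uses no measured value, but the list was drawn up with earlier results of these data known. All 34 passed the filter on low counts, as did 16567 genes in all. By role they comprise 5 glutathione S-transferases, 4 genes of glutathione synthesis and recycling, 3 glutathione peroxidases, 4 genes of the thioredoxin system, 6 peroxiredoxins, 3 superoxide dismutase and catalase genes, 4 genes of the NRF2 axis and 5 of the pentose phosphate pathway.

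Glutathione is a cysteine-containing tripeptide that gives up electrons to peroxides and is coupled to reactive compounds by transferases, and the oxidised form is recycled at the expense of NADPH. Thioredoxin and the peroxiredoxins form a parallel route that draws on the same NADPH, much of which comes from the oxidative branch of the pentose phosphate pathway, a side branch of glycolysis. NRF2, encoded by Nfe2l2, is a transcription factor held low by KEAP1 that switches on many of these genes through the antioxidant response element, and mutations that free NRF2 from KEAP1 are known in squamous carcinomas.

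The cells were tumour propagating cells, the tumour cells able to seed a new tumour, from skin tumours of C57BL/6 mice, and the series asked about a glycolytic subset of them. Tumours were induced with the carcinogen DMBA, given once to mice 8 weeks old, followed by the tumour promoter TPA over more than 20 weeks. Viable cells positive for CD34, CD49f and YFP were sorted singly into plates for Smart-seq2 libraries, and the YFP came from a ROSA26 reporter opened by Cre under the keratin 14 promoter. The 284 cells came from 4 mice, 73 cells of KO1 and 54 of KO3, which carry the genotype label Sirt6-/-, and 69 cells of WT1 and 88 of WT2, labelled wild type. DMBA, TPA, the reporter and the sort were common to all 4 mice as labelled. The mouse is the replicate, with 2 per genotype. A p-value rests on the spread between these few mice, which the tests estimate in part from all genes together.

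Total counts per cell lay between 523999 and 1684464, with a median of 1130412. Sirt6 lay at 27.0 CPM in KO1 and 14.5 CPM in KO3, against 16.7 CPM in WT1 and 25.2 CPM in WT2. The level of Sirt6 thus goes against the label, although counts summed over the whole gene would miss the loss of single exons, and KO1 and KO3 are called mice labelled Sirt6-/- wherever a direction is drawn. The cells were keratinocytes by their markers: Krt5 and Krt14 had counts in 100% of the cells. At least 2 fibroblast or melanocyte markers were found in 0 cells, endothelial markers in 2 and immune markers in 6. Plates 1 and 2 held KO1, plate 2 also KO3, plate 3 WT1 with a few cells of WT2, and plate 4 the rest of WT2, so that genotype and plate cannot be told apart. WT2 stood apart from the other mice for many genes of the system. The summaries of the genotype comparison are given with and without WT2, as are log2 differences of at least 0.5 where the groups did not overlap. Smaller differences are given only with WT2. Its median cell also had the fewest detected genes, 5783.5, against 6367 in KO1, 6614.5 in KO3 and 7009 in WT1.

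The antioxidant response element has the core TGACNNNGC, in which N is any base. In the promoter windows of RefSeq (GRCm38.p6, 250 bases before to 50 bases after a gene start), 29 of the 34 genes had an entry, and 9 of these 29 (31.0%) held the core on either strand, against 14.0% of all 27025 genes with an entry. The genes with a match were G6pdx, Gclm, Gstm5, Nfe2l2, Pgd, Prdx1, Sod1, Srxn1 and Txnrd1. The windows of 4 of them are shown because they recur in the results: G6pdx and Prdx1 co-varied with many other members, Txnrd1 was low in WT2, and Gclm was not. Each is written 5′ to 3′ on the strand of the gene with the match in capitals, which in these 4 windows reads as the reverse complement of the core. The G6pdx window is chrX:74428831-74429130 (minus strand), with the match starting 57 bases before the gene start. The Prdx1 window is chr4:116685349-116685648 (plus strand), with the match 133 bases before the start, and its letters, TGACTCAGC on the opposite strand, overlap the AP-1 motif TGACTCA. The Txnrd1 window is chr10:82858956-82859255 (plus strand), with the match 92 bases before the start, in 1 of the 3 entries of this gene. The Gclm window is chr3:122245307-122245606 (plus strand), with the match 134 bases before the start.
G6pdx: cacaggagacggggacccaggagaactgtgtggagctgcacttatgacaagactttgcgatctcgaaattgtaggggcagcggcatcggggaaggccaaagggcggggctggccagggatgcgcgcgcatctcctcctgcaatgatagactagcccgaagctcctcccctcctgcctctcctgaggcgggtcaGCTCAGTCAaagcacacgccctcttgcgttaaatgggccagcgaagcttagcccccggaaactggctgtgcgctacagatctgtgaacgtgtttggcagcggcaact
Prdx1: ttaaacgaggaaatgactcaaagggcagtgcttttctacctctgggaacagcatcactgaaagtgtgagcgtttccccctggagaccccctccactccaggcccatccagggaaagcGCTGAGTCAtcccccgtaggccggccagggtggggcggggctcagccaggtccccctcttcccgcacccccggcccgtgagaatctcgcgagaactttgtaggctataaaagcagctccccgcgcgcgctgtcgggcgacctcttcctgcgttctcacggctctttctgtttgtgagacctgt
Txnrd1: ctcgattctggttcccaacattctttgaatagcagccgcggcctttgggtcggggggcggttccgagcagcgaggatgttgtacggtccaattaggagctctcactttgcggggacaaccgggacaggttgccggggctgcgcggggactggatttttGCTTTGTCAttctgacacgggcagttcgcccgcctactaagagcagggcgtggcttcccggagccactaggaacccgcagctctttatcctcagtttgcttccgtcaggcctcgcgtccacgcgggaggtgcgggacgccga
Gclm: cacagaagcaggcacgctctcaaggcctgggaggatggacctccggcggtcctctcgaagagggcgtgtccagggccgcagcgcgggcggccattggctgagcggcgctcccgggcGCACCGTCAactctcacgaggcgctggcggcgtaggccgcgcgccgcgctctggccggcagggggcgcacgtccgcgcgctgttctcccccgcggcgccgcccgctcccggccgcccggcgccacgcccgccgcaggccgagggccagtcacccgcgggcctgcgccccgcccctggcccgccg
A match is a description of these letters and not a site shown to be bound. Of the 9 genes with the core, 6 were lowest in WT2, as were 11 of the 20 genes whose windows lacked it.

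A few enzymes were far more abundant than the rest. Per kilobase of exon, the highest mean level belonged to Gsto1, an omega-class glutathione transferase, with 1531 CPM per kb over the 4 mice, followed by Gsta4, which conjugates the lipid peroxidation product 4-hydroxynonenal, with 1130 CPM per kb. Txn1, thioredoxin itself, followed at 656 CPM per kb, Prdx1, a cytosolic peroxiredoxin, at 516.8 and Gpx1, the general glutathione peroxidase, at 461 CPM per kb. The lowest were Txnrd1, thioredoxin reductase, at 5.54 CPM per kb, and Hmox1, haem oxygenase, at 5.99 CPM per kb. Counts were found in at least 90% of the 284 cells for 16 of the 34 genes, and in under 50% of the cells for 5. Levels below are CPM of the summed cells of a mouse, scaled by TMM, and such a sum cannot tell fewer cells with the transcript from less RNA per cell.

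**Figure D1:**
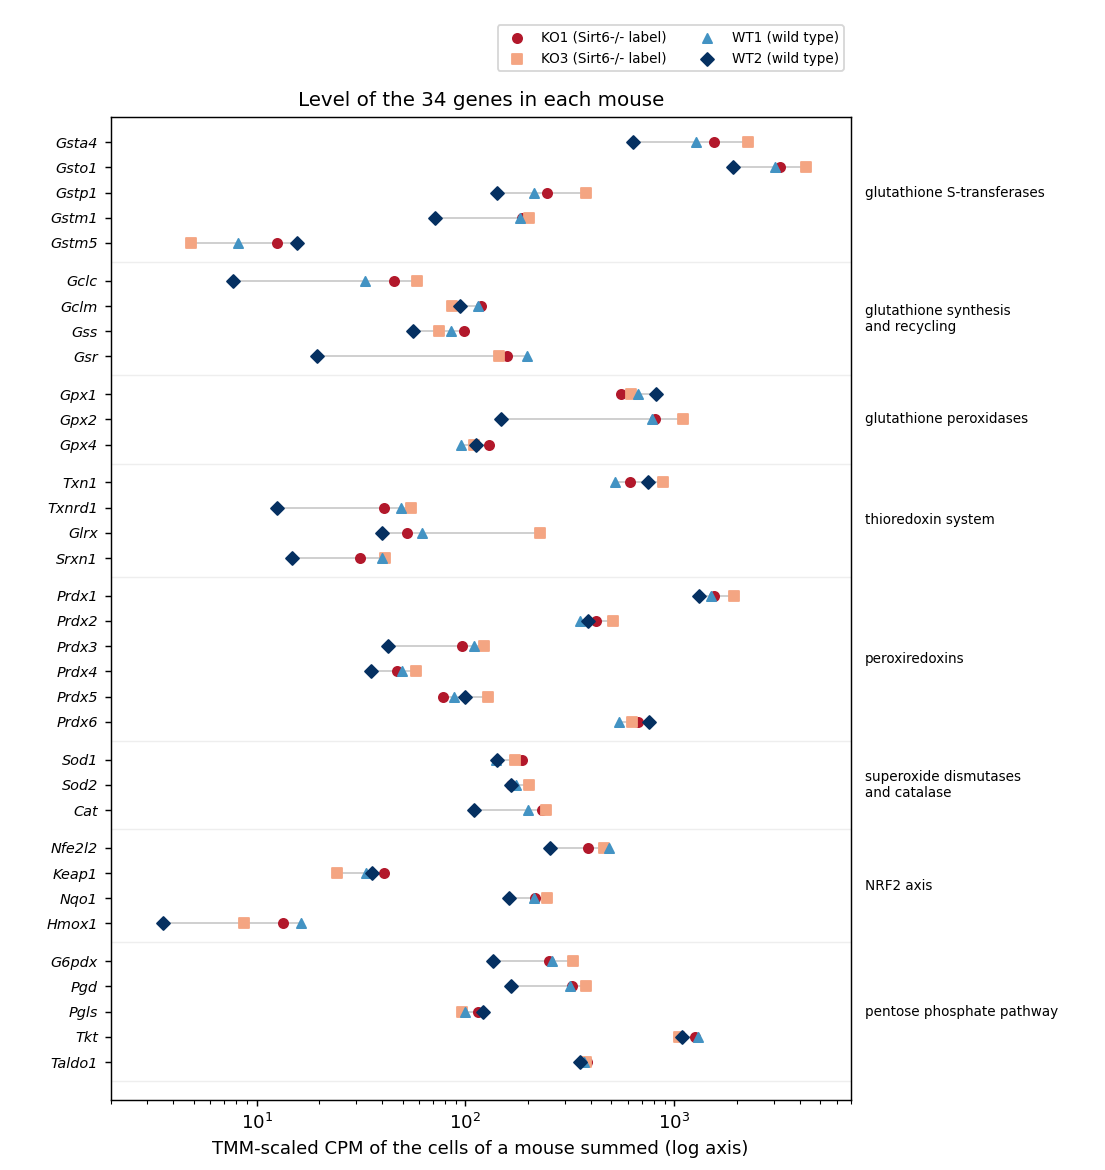
Levels of the 34 genes, grouped by role, with TMM-scaled CPM of the summed cells of each mouse on a log axis and a point per mouse. In 21 of the 34 rows the WT2 diamond is the leftmost point, farthest from the others for Gsr, Gpx2 and Gclc.

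Among the glutathione S-transferases, 4 of 5 had KO1 and KO3 above WT1 and WT2, against 17.0% of all genes tested. Of these transferases 0 of 5 passed the test. Gsta4 had 1548 CPM in KO1 and 2262 CPM in KO3, against 1275 CPM in WT1 and 636 CPM in WT2, a log2 difference of 1.00 ± 0.42 (SE). Gsto1 had 3194 and 4251 CPM in KO1 and KO3, against 3028 and 1917 CPM in WT1 and WT2, a log2 difference of 0.59 ± 0.31. The groups did not overlap for either gene, but KO1 lay close to WT1 and WT2 was the mouse farthest below. Without WT2 the log2 differences were 0.58 for Gsta4 and 0.30 for Gsto1. Gstp1, the pi-class transferase, had 245 and 378 CPM in KO1 and KO3, against 212 and 141.5 CPM in WT1 and WT2. Gstm1, a mu-class transferase, had 186 and 200.9 CPM in KO1 and KO3, against 183 and 71.6 CPM in WT1 and WT2. Their log2 differences were 0.82 ± 0.34 and 0.60 ± 0.48 (SE), and for Gstm1 the 3 mice other than WT2 lay close together. Without WT2 they were 0.56 for Gstp1 and 0.08 for Gstm1. Gstm5, another mu-class gene, ran the other way with 12.6 and 4.87 CPM in KO1 and KO3, against 8.11 and 15.7 CPM in WT1 and WT2, and its groups overlapped.

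Glutathione synthesis and recycling held the member with the widest gap between mice. Gsr, glutathione reductase (chromosome 8, 33652523 to 33698163, plus strand), which returns oxidised glutathione to its reduced form with NADPH, had 159 CPM in KO1 and 145 CPM in KO3, against 196.5 CPM in WT1 and 19.4 CPM in WT2. WT2 was thus 7.47-fold below the next mouse while WT1 was the highest of the 4, so the genotype groups overlapped. Gclc, the catalytic subunit of glutamate-cysteine ligase that makes the first and limiting step of synthesis, had 45.6 and 58.4 CPM in KO1 and KO3, against 33.1 and 7.75 CPM in WT1 and WT2. Its groups did not overlap (log2 difference 1.35 ± 0.73, SE), and WT2 was 4.27-fold below WT1. Without WT2 the difference was 0.65. Gclm, the modifier subunit of the same enzyme, had 119 and 86.7 CPM in KO1 and KO3, against 115 and 94.6 CPM in WT1 and WT2, with no order between the groups. Gss, which adds glycine in the second step, had 98.1 and 75.0 CPM in KO1 and KO3, against 85.1 and 56.4 CPM in WT1 and WT2, and its groups also overlapped.

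The 3 glutathione peroxidases went separate ways. Gpx2, the epithelial form (chromosome 12, 76792333 to 76795554, minus strand), had 806 CPM in KO1 and 1103 CPM in KO3, against 785 CPM in WT1 and 149 CPM in WT2. Its groups were ordered without overlap by a narrow margin between KO1 and WT1 (log2 difference 1.03 ± 0.81, SE), and WT2 was 5.29-fold below the next mouse. Without WT2 the difference was 0.28. Gpx1 was the only member lower in both mice labelled Sirt6-/-, with 554 and 622 CPM in KO1 and KO3, against 666.5 and 815 CPM in WT1 and WT2 (log2 difference -0.33). Gpx4, which reduces lipid hydroperoxides in membranes and holds back ferroptosis, had 129 and 110.0 CPM in KO1 and KO3, against 94.8 and 113 CPM in WT1 and WT2, and its groups overlapped.

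In the thioredoxin system the carrier and its reductase differed in pattern. Txn1 had 611 and 878 CPM in KO1 and KO3, against 518 and 750 CPM in WT1 and WT2, so WT2 was not low for thioredoxin. Txnrd1, the enzyme that reduces it with NADPH, had 40.6 and 55.1 CPM in KO1 and KO3, against 49.0 and 12.5 CPM in WT1 and WT2. Srxn1, sulfiredoxin, which repairs over-oxidised peroxiredoxins, had 31.2 and 41.2 CPM in KO1 and KO3, against 40.0 and 14.8 CPM in WT1 and WT2. WT2 was 3.26-fold below the next mouse for Txnrd1 and 2.11-fold for Srxn1. Glrx, glutaredoxin, was the case of a single high mouse, with 52.8 CPM in KO1 and 229 CPM in KO3, against 62.1 CPM in WT1 and 39.7 CPM in WT2. A single cell held 12.1% of all Glrx counts.

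The peroxiredoxins were mostly steady. Prdx1 had 1555 and 1930 CPM in KO1 and KO3, against 1499 and 1307 CPM in WT1 and WT2, and Prdx2, its cytosolic relative, had 421 and 508 CPM in KO1 and KO3, against 353 and 385 CPM in WT1 and WT2. Both were ordered without overlap, with log2 differences of 0.31 and 0.33. Prdx3, the mitochondrial form, had 96.5 and 122 CPM in KO1 and KO3, against 109.9 and 42.7 CPM in WT1 and WT2, and WT2 was again apart, 2.26-fold below the next mouse. Prdx4 of the endoplasmic reticulum, Prdx5 and Prdx6 lay within log2 differences of -0.01 to 0.30, and their groups overlapped. Cat, catalase, had 232 and 242 CPM in KO1 and KO3, against 200 and 109.7 CPM in WT1 and WT2 (log2 difference 0.61 ± 0.34, SE, and 0.24 without WT2). Sod1, the cytosolic superoxide dismutase, had 186 and 172 CPM in KO1 and KO3, against 141 and 142 CPM in WT1 and WT2. Neither gene overlapped between the groups, and for Sod1 each pair of mice lay close together. Sod2, the mitochondrial dismutase, had a log2 difference of 0.11 with overlapping groups.

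Of the NRF2 axis, Nfe2l2 itself had 388 and 460 CPM in KO1 and KO3, against 488 and 255 CPM in WT1 and WT2. Nqo1, a quinone reductase and a standard NRF2 target, had 215 and 245 CPM in KO1 and KO3, against 213 and 162 CPM in WT1 and WT2. Hmox1 was sparse, with 13.4 and 8.69 CPM in KO1 and KO3, against 16.3 and 3.56 CPM in WT1 and WT2, and counts in 16.2% of all cells. WT2 was the lowest mouse for each of these 3 genes. Keap1, the adaptor that marks NRF2 for degradation, had 40.7 and 24.3 CPM in KO1 and KO3, against 33.4 and 35.6 CPM in WT1 and WT2, so here KO3 was lowest.

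In the pentose phosphate pathway both NADPH-forming dehydrogenases were low in WT2. G6pdx, which catalyses the entry step, had 252 and 328 CPM in KO1 and KO3, against 261 and 136 CPM in WT1 and WT2. Pgd, the next dehydrogenase, had 322 and 377 CPM in KO1 and KO3, against 316 and 165 CPM in WT1 and WT2 (log2 difference 0.54 ± 0.37, SE, and 0.15 without WT2). The non-NADPH steps did not follow them. Pgls had 115 and 96.3 CPM in KO1 and KO3, against 99 and 121 CPM in WT1 and WT2, and Tkt, transketolase of the reversible branch, had 1258 and 1051 CPM in KO1 and KO3, against 1292 and 1090 CPM in WT1 and WT2. Taldo1, transaldolase of the same branch, was the steadiest, with 381 and 378 CPM in KO1 and KO3, against 368 and 353 CPM in WT1 and WT2.

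The comparison of the genotype labels called none of these genes. With edgeR's quasi-likelihood test, 0 of 34 members passed an adjusted p of 0.05, against 0 of all 16567 genes (0.0%), and 0 members and 848 genes had an unadjusted p under 0.05. The smallest unadjusted p among the members was 0.0656, for Gstp1, and adjusted p-values ran between 0.965 and 0.999. DESeq2 called 148 genes (0.893%) and 0 members. By direction, 27 of 34 members (79.4%) had a positive log2 difference, against 49.3% of all genes tested, with a median of 0.31 over the members and -0.01 over all genes. KO1 and KO3 were above WT1 and WT2 without overlap for 13 members, against 17.0% of all genes, and below them for 1 member, Gpx1, against 18.7% of all genes.

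These directions rested in large part on WT2. Without WT2 the median log2 difference of the members was 0.11, against 0.05 over all genes, and with WT2 but without WT1 it was 0.61. The members ordered without overlap and higher in the mice labelled Sirt6-/- were 16 without WT2, against 29.0% of all genes, and 23 without WT1, against 32.8% of all genes. They were 22 without KO1, against 33.1%, and 17 without KO3, against 32.5%. KO3 was the highest of the 4 mice for 20 of 34 members, against 26.9% of all genes, and the median without KO3 was 0.22. The summed level of 15 suprabasal keratinocyte genes was 2214 CPM in KO1 and 3862 CPM in KO3, against 1743 CPM in WT1 and 2592 CPM in WT2, so KO3 was highest for these as well, and their part in the result was not tested.

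The clearest pattern in the levels was between mice and not between labels. WT2 was the lowest of the 4 mice for 21 of 34 members (61.8%), against 27.7% of all genes tested. It was both lowest and more than 2-fold below the next mouse for 9 members (26.5%), against 6.22% of all genes tested and 2.35% of the 8528 genes of at least 10 CPM. These 9 were Gsta4, Gstm1, Gclc, Gsr, Gpx2, Txnrd1, Srxn1, Prdx3 and Hmox1, and in the other 3 mice the same count was 0. The choice to set WT2 against the others was made after the values were seen, so it carries no test. Markers of keratinocyte state also set WT2 apart. The summed level of 6 basal markers was 40550 CPM in WT2, against 27290 to 31470 CPM in the other mice. Krt14 (30140 CPM), Krt5 (8379 CPM) and Itgb4 (1213 CPM) were each highest in WT2. For WT2, Trp63 (465.6 CPM) and Itga6 (220 CPM) lay below their levels in WT1, and Cd34 (141 CPM) was the lowest of the 4 mice. The sum of the 15 suprabasal genes in WT2 was carried by Krt1 (1034 CPM) and Krt10 (530.6 CPM), each highest in WT2, while Krtdap (324.6 CPM), Spink5 (116 CPM) and Ly6d (414.5 CPM) were lowest there. Without Krt1 and Krt10, left out after their values were seen, the sum was 1028 CPM in WT2, against 2018 CPM in KO1, 3398 CPM in KO3 and 1451 CPM in WT1. Its immune marker sum was the highest, 29.9 CPM against at most 12.7 CPM in the others, and 6 cells in all had at least 2 immune markers. The part of these markers in the result was not tested.

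The low levels in WT2 were spread over its cells. Gsr had counts in 61 of 73 cells of KO1 (83.6%, exact 95% interval 73.0 to 91.2) and 50 of 54 cells of KO3 (92.6%, 82.1 to 97.9), against 65 of 69 cells of WT1 (94.2%, 85.8 to 98.4) and 27 of 88 cells of WT2 (30.7%, 21.3 to 41.4). With every cell thinned to 500000 counts these shares were 82.2% in KO1 and 88.9% in KO3, against 94.2% in WT1 and 29.5% in WT2. The median cell had 135 CPM of Gsr in KO1 and 115 CPM in KO3, against 160 CPM in WT1 and 0 in WT2. For Gpx2 the median cell had 698.5 CPM in KO1 and 930 CPM in KO3, against 760 CPM in WT1 and 75.1 CPM in WT2, and counts were present in 69.3% of the cells of WT2 and at least 94.5% of those of each other mouse. Txn1 had counts in 100% of the cells of every mouse. Its median cell had 535.5 CPM in KO1 and 800 CPM in KO3, against 499 CPM in WT1 and 602 CPM in WT2. WT2 was thus not low for every gene of the system. Intervals treat the cells of a mouse as independent draws and do not cover the spread between mice.

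**Figure D2:**
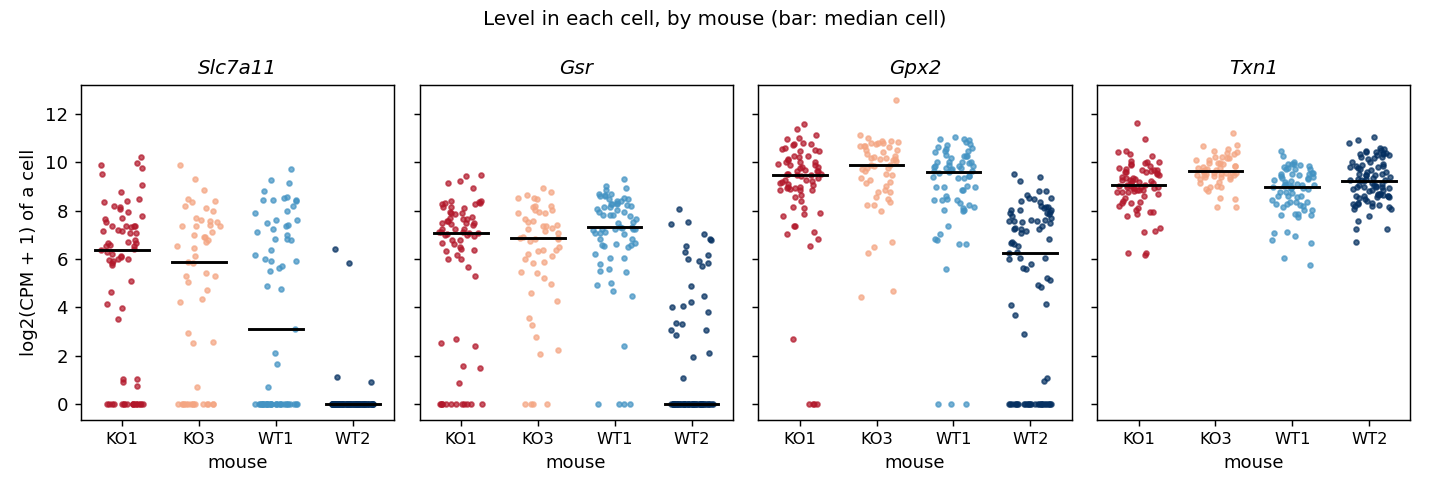
Level in single cells of the 4 mice as log2(CPM + 1), a point per cell and a bar at the median cell, for Slc7a11, Gsr, Gpx2 and Txn1. Most cells of WT2 sit at 0 for Slc7a11 and Gsr and low for Gpx2, while Txn1 is alike in the 4 mice.

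On plate 3, 7 cells of WT2 stood beside the 69 cells of WT1. There Gsr had 0.78 CPM in WT2, with a count in 1 of 7 cells, against 200 CPM in WT1. Gpx2 had 127 CPM in WT2 against 801 CPM in WT1, and Txnrd1 14.4 CPM in WT2 against 49.9 CPM in WT1. Over all 34 members 25 (73.5%) were lower in WT2 than in WT1 there, against 62.2% of all genes tested. The 25 include the 21 members that were lowest in WT2 over all cells, which had been picked for lying below WT1, and of all 4594 genes picked in the same way 83.5% were lower there. The 81 cells of WT2 on plate 4 gave 20.1 CPM for Gsr and 143 CPM for Gpx2, so both plates of WT2 were low. With 7 cells the values on plate 3 are imprecise.

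**Figure D3:**
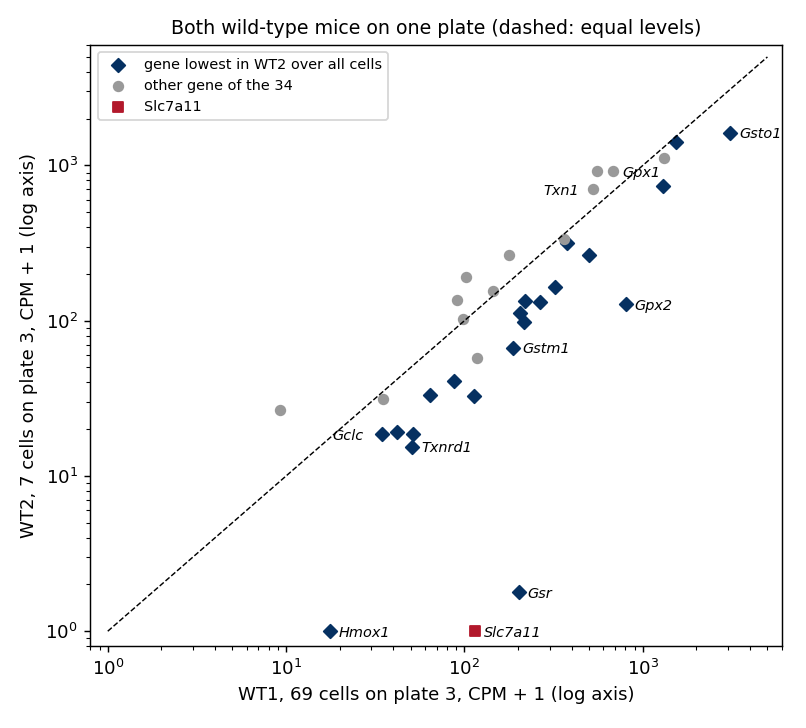
Levels on plate 3, with the 7 cells of WT2 on the vertical axis against the 69 cells of WT1 on the horizontal axis, both as CPM + 1 on log axes. Of the 34 genes 25 lie below the dashed line of equal levels, among them the 21 chosen as lowest in WT2 over all cells (diamonds), with Gsr at 0.78 CPM in WT2, and Slc7a11 is at 0 in WT2.

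Other genes of the same pathways gave a mixed picture. Of 82 listed genes 77 were tested, 0 were called by edgeR's adjusted p and 3 had an unadjusted p under 0.05 (Aldh1l1, Nfe2l1 and Mafg). KO1 and KO3 were above WT1 and WT2 for 20 of the 77 (26%) and below them for 12 (15.6%), against 17.0% and 18.7% of all genes tested, with a median log2 difference of 0.15. WT2 was the lowest mouse for 33 of the 77 (42.9%), against 27.7% of all genes tested, split into 17 of 38 glutathione and thioredoxin genes, 12 of 24 further NRF2-axis genes and 4 of 15 other NADPH suppliers. The sharpest case was Slc7a11 (chromosome 3, 49892526 to 50443614), the cystine importer that feeds glutathione synthesis and a known NRF2 and ATF4 target. It had 161.5 CPM in KO1 and 125 CPM in KO3, against 112 CPM in WT1 and 1.57 CPM in WT2, which is 71.1-fold below WT1. Counts for it were found in 56 of 73 cells of KO1 and 39 of 54 cells of KO3, against 38 of 69 cells of WT1 and 4 of 88 cells of WT2. On plate 3 Slc7a11 was at 0 in the 7 cells of WT2, against 114 CPM in WT1. Gsta1, an alpha-class transferase, had 55.4 and 91.7 CPM in KO1 and KO3, against 31.8 and 2.29 CPM in WT1 and WT2, and Gsta3, of the same class, 24.3 and 24.6 CPM in KO1 and KO3, against 11.8 and 2.95 CPM in WT1 and WT2. For Gsta3 the order did not hold on plate 3, where WT2 had 19.5 CPM against 12.1 CPM in WT1. Txnip, the inhibitor that binds thioredoxin, ran the other way with 39.0 and 10.0 CPM in KO1 and KO3, against 50.2 and 142 CPM in WT1 and WT2, and its counts reached 57 of the 88 cells of WT2. All 4 differences had adjusted p-values of 0.965 or 0.996 by edgeR. Nnt, the mitochondrial transhydrogenase that makes NADPH, was at 0 counts in all 284 cells, which allows at most 0.05 CPM in any mouse (3 counts per mouse). It was named after its values were seen. A deletion in Nnt is known from a substrain of C57BL/6, and the labels give no substrain.

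Some members share reads with near-identical copies, and the authors' estimate divided such reads. Gstp2 held 18.7% as many counts as Gstp1, Gstm2 35.2% as many as Gstm1, and the pseudogene Gpx4-ps2 69.6% as many as Gpx4. The values of Gstp1, Gstm1 and Gpx4 are therefore uncertain in the part that the estimate divided, and 97.2%, 90.4% and 98.6% of their non-zero values were not whole numbers. Gstm2 lay at 68.3 and 32.3 CPM in KO1 and KO3, against 34 and 78.2 CPM in WT1 and WT2, a pattern unlike that of Gstm1. Values that were not whole also made up 95% for Taldo1, 93.0% for Prdx1, 77.6% for Gpx2, 57.0% for Txn1, 56.8% for G6pdx and 56.3% for Prdx2, so their levels and correlations rest in part on divided reads too. For Gsr, Gsta4, Gsto1 and Gclc all values were whole (0.0% not whole), although Gsta1, Gsta2 and Gsta3 are relatives of Gsta4.

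From cell to cell within a mouse, the members co-varied more than genes at large. Values were log2(CPM + 1), with the trends on total counts and detected genes removed in each mouse, and 33 members entered, because Hmox1 had counts in fewer than 20% of the cells of KO1 and WT2. The mean Pearson correlation over the 528 pairs was 0.0632 in KO1 and 0.074 in KO3, against 0.09 in WT1 and 0.0183 in WT2, with 0.0614 over the 4 mice against 0.0023 for pairs among all 8474 genes. Positive values in all 4 mice were found for 112 of 528 pairs (21.2%), against 7.8% of all pairs, and 72 pairs (13.6%) exceeded the 99th percentile of all pairs (0.179). The cells of a mouse share its libraries and plates, so these correlations are a description and carry no test. WT2 had the weakest co-variation, and several of its members were near 0 in many cells.

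The strongest pair joined the 2 most abundant transferases. Gsta4 and Gsto1 correlated at 0.571 in KO1 and 0.805 in KO3, against 0.735 in WT1 and 0.36 in WT2. Gsto1 and Txn1 followed with 0.741 and 0.655 in KO1 and KO3, against 0.184 and 0.497 in WT1 and WT2. Both pairs were positive in every mouse. Gsto1 and Gpx2 had 0.70 and 0.753 in KO1 and KO3, against 0.183 and 0.229 in WT1 and WT2. The next 5 pairs linked Gsta4 with Txn1 (mean 0.419), Gpx2 with Prdx1 (0.391), Gsta4 with Gpx2 (0.385), Gpx2 with Txn1 (0.379) and Gstp1 with Gpx2 (0.374). Gpx2 therefore stood in 5 of the 8 pairs. The negative end was led by Glrx and Sod1, with -0.375 and -0.412 in KO1 and KO3, against -0.141 and -0.313 in WT1 and WT2.

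**Figure D4:**
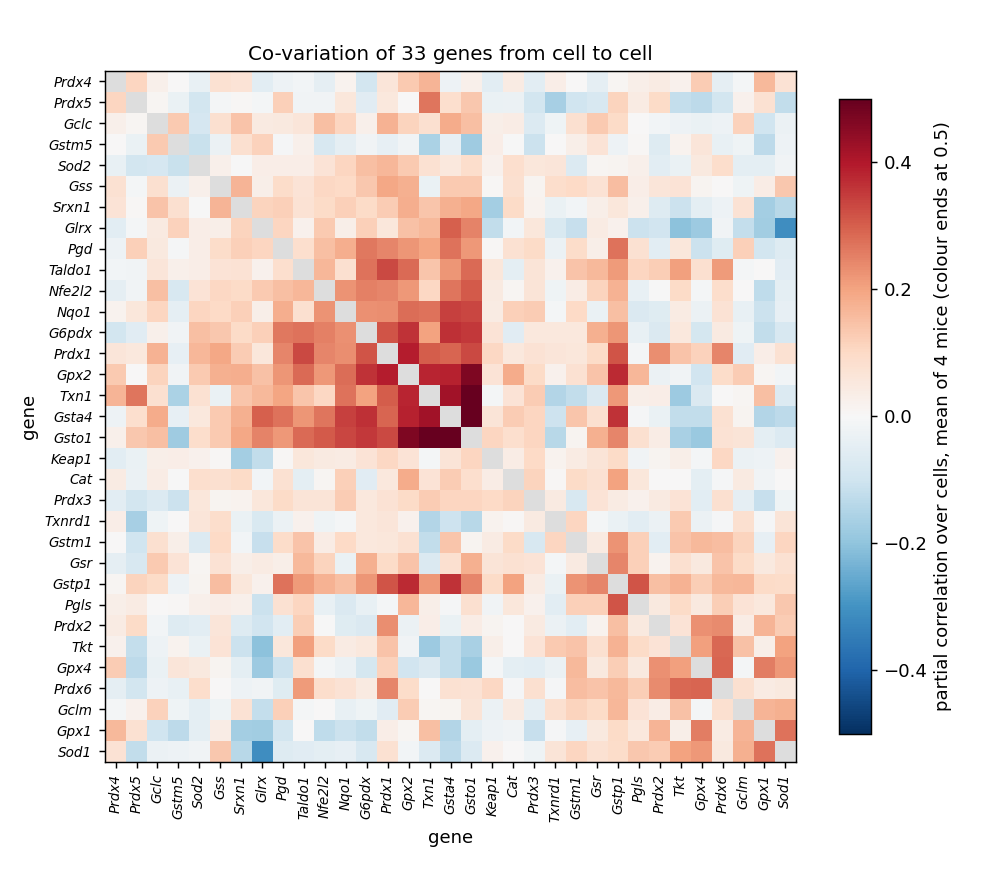
Partial correlation over cells for each pair of 33 genes, as the mean of the 4 mice, with genes ordered by average-linkage clustering and the colour scale ending at 0.5. A red block runs over Gsto1, Gsta4, Txn1, Gpx2, Prdx1, G6pdx, Nqo1, Nfe2l2, Taldo1 and Pgd, and a weaker one at the lower right over Prdx2, Tkt, Gpx4, Prdx6, Gpx1 and Sod1.

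The matrix of pairs showed 2 groups, which were read off after the values were seen and are described without a test. The first held 10 genes, the transferases Gsto1 and Gsta4, Txn1, Gpx2, Prdx1, Nqo1, Nfe2l2 and the pentose phosphate genes G6pdx, Taldo1 and Pgd. Its 45 pairs had a mean correlation of 0.28, and 30 of them were positive in all 4 mice. The second held Sod1, Gpx1, Gpx4, Prdx6, Prdx2 and Tkt, with a mean of 0.179 over 15 pairs, 9 of them positive in all 4 mice. Across the groups 5 of 60 pairs were positive in all 4 mice and the mean was -0.00545. Among all pairs of genes the share positive in all 4 mice was 7.8%. Gstp1 was placed in neither group, although its mean correlation with the other members, 0.157, was below only that of Gpx2 (0.158). The values within and across the groups leave it out.

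The groups differed in the cell states they followed. A suprabasal score, the mean of 7 genes that keratinocytes switch on as they leave the basal layer, correlated positively in all 4 mice with 16 of 33 members (48.5%), against 16.0% of all genes. Gsto1 led with 0.648 and 0.51 in KO1 and KO3, against 0.36 and 0.491 in WT1 and WT2. Gsta4 had 0.521 and 0.495 in KO1 and KO3, against 0.435 and 0.356 in WT1 and WT2, Glrx a mean of 0.421 and Txn1 a mean of 0.416. All 4 genes were positive in every mouse, and their means lay above the 99th percentile of all genes. At the other end Sod1 had -0.452 and -0.625 in KO1 and KO3, against -0.257 and -0.373 in WT1 and WT2. Gpx1 had a mean of -0.392, Gpx4 of -0.32 and Tkt of -0.263, each, like Sod1, negative in every mouse. Members negative with the suprabasal score in all 4 mice numbered 7 of 33 (21.2%), near the 18.0% of all genes. Prdx2 (mean -0.073) and Prdx6 (-0.076), also of the second group, were each positive in at least 1 mouse. With the S phase score, made of genes of DNA replication, the median was 0.217 over the second group and -0.0705 over the first. Sod1 had a mean of 0.288, Gpx4 of 0.28, Gpx1 of 0.256 and Prdx2 of 0.176, all positive in 4 of 4 mice. So was Prdx4 with 0.165, which like Glrx (-0.197) is in neither group. In the first group Txn1 had -0.117 and Prdx1 0.098. In all, 5 of 33 members were positive with the S phase score in all 4 mice (15.2%), against 14.3% of all genes. The oxidative phosphorylation score was positive in all 4 mice for 16 members (48.5%), against 15.9% of all genes, and it cut across both groups, with Prdx1 at a mean of 0.393, Txn1 at 0.372 and Prdx2 at 0.347. No member (0 of 33) was positive in all 4 mice with a score of 15 immediate early and dissociation stress genes, against 8.0% of all genes. Negative values in all 4 mice were found for 11 members (33.3%), against 9.9% of all genes. They included 8 of the 10 genes of the first group, all but Nqo1 and Pgd, with Gsto1 at -0.326 and -0.281 in KO1 and KO3, against -0.01 and -0.188 in WT1 and WT2.

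The series' question about a glycolytic subset was addressed by correlating each member with a glycolysis score, the mean of 13 glycolytic enzyme genes, in each mouse. The Fisher z of the 4 mice was tested against 0 with limma over 8461 genes. Of these, 131 were called positive (1.55%) and 7 negative (0.0827%). Of the 33 members 5 were called, all positive: Gsto1, G6pdx, Gsta4, Taldo1 and Pgd. They include both NADPH-forming dehydrogenases of the pentose phosphate pathway and 2 transferases. Over all members the median Fisher z was 0.11, against 0.01 over all genes, and 8 members were positive in all 4 mice (24.2%), against 13.0% of all genes.

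Gsto1 correlated with the score at 0.34 in KO1 and 0.17 in KO3, against 0.28 in WT1 and 0.41 in WT2, with a mean z of 0.31 ± 0.07 (SE) and a limma adjusted p of 0.00832. G6pdx had 0.34 and 0.17 in KO1 and KO3, against 0.31 and 0.31 in WT1 and WT2 (mean z 0.29 ± 0.07, limma adjusted p = 0.0121). Both were positive in every mouse. Gsta4 had 0.16 and 0.14 in KO1 and KO3, against 0.48 and 0.28 in WT1 and WT2 (mean z 0.28, limma adjusted p = 0.0219). Pgd had 0.22 and 0.25 in KO1 and KO3, against 0.40 and 0.06 in WT1 and WT2 (mean z 0.24, limma adjusted p = 0.0485). Taldo1 was the uneven one, with 0.32 in KO1 and -0.08 in KO3, against 0.65 in WT1 and 0.15 in WT2 (mean z 0.30, limma adjusted p = 0.0381). Without WT1 its mean z was 0.14 and its limma adjusted p 0.568. Next came Nfe2l2, Glrx and Tkt with a mean z of 0.20 each and limma adjusted p-values of 0.147, 0.126 and 0.243, and Tkt had opposite signs within each genotype label. The lowest were Gstm1 with a mean z of -0.14, Gclm with -0.12, Gstm5 with -0.11, and Gclc and Txnrd1 with -0.09 each, of which 0 passed the test (limma adjusted p between 0.376 and 0.646). Of the synthesis genes, Gss had a positive mean z of 0.11 that did not pass the test (limma adjusted p = 0.50).

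**Figure D5:**
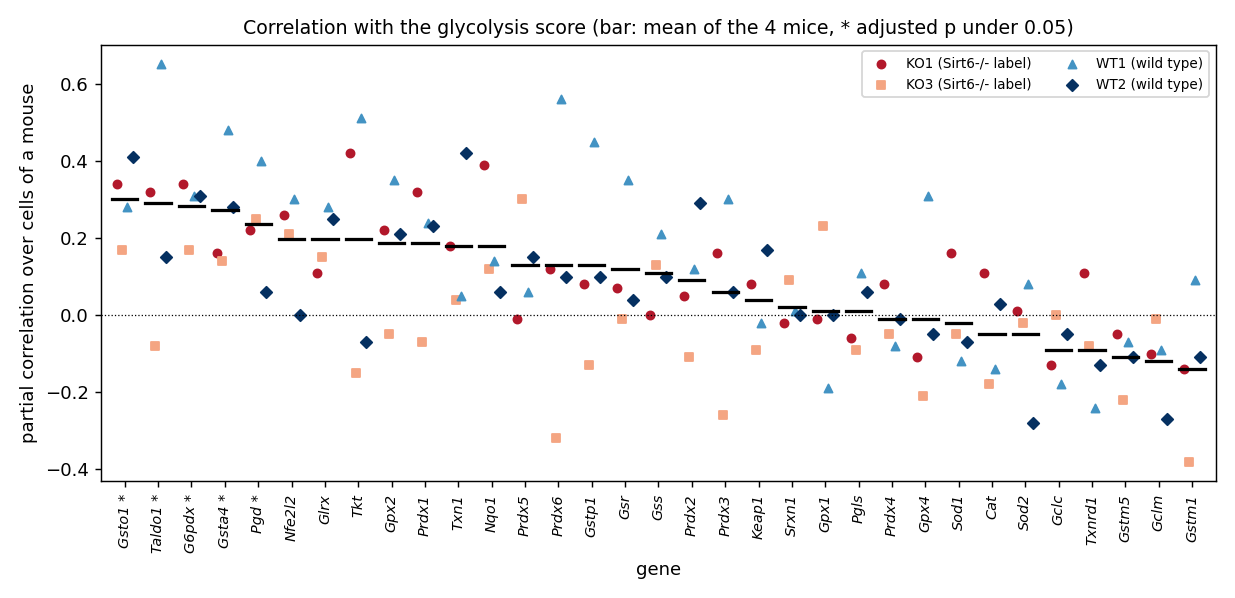
Partial correlation of 33 genes with the glycolysis score over the cells of each mouse, a point per mouse and a bar at the mean of the 4 mice, with an asterisk for a limma adjusted p under 0.05. The 5 called genes stand at the left with mean z between 0.24 and 0.31, and those of Taldo1 lie between -0.08 in KO3 and 0.65 in WT1.

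Removing a suprabasal score from the cells as well, a choice made after seeing the data, ended all 5 calls. This score was wider than the one of 7 genes above, since it also took in genes found in fewer cells, such as Ivl and Tgm1. With it removed, 0 of 33 members and 68 genes (0.804%) were called. The mean z was then 0.24 for Gsto1, 0.22 for G6pdx and 0.21 for Gsta4. Leaving out a mouse left between 1 and 4 members called, 1 without KO1 (Gsta4), 4 without KO3, 1 without WT1 (Gsto1) and 1 without WT2 (Pgd). Among single enzymes, the widest link was to Ldha, lactate dehydrogenase, with which 11 members (33.3%) were positive in all 4 mice, against 14.9% of all genes. Eno1 and Pgam1 followed with 10 each, against 10.2% and 11.4% of all genes. Of the hexokinases of the first step, Hk2 had 6 members, against 9.1% of all genes, and Hk1 had 2, against 6.9%. The lowest count was 1, for Pfkp, against 7.1% of all genes. The pair with the highest mean was Gsto1 with Ldha, at 0.44 in KO1 and 0.548 in KO3, against 0.448 in WT1 and 0.32 in WT2. Prdx1 with Ldha followed with a mean of 0.35. Over all 429 pairs of a member and an enzyme, 73 (17.0%) were positive in all 4 mice. Over all genes the share for single enzymes lay between 6.9% (Hk1) and 14.9% (Ldha).

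The genotype labels were also compared for this correlation. The difference in Fisher z was called by limma for 6 of 8461 genes (0.0709%) and for 0 of 33 members, of which 4 (12.1%) had an unadjusted p under 0.05, against 7.03% of all genes. Prdx6 had the largest difference, with 0.12 and -0.32 in KO1 and KO3, against 0.56 and 0.10 in WT1 and WT2 (z difference -0.47 ± 0.15, SE, limma adjusted p = 0.375). The mice of each label were farther apart from each other than KO1 from WT2.

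An NRF2 target score, made of 11 members that are textbook targets, was used to find genes that move with the system, leaving a gene out of the score it was set against. It was positive in all 4 mice for 12 of 33 members (36.4%), against 11.5% of all genes. Of the score's own genes, only Prdx1, G6pdx, Pgd and Taldo1 were positive in all 4 mice with the rest of the score. In WT2 Gclc, Gclm, Gsr, Txnrd1, Srxn1, Nqo1 and Tkt were negative, between -0.13 (Gclc) and -0.045 (Nqo1). Most genes of the score thus did not move with the rest of it in WT2. Among members outside the score, Gpx2 had the highest mean correlation, with 0.466 and 0.522 in KO1 and KO3, against 0.526 and 0.283 in WT1 and WT2, followed by Gsto1 with a mean of 0.398 and Gstp1 with 0.393. Nfe2l2 itself, whose product is regulated mainly at the protein level, had a mean of 0.305 and was positive in every mouse. Of the 10 other genes most like the score over the 4 mice, 5 were processed pseudogenes (Gm5456, Gpx2-ps1, Gm17823, Gm12669 and Gstp-ps), at least 2 of them copies of members whose reads they can share. The remaining 5 were Ywhaz (mean 0.326), an adaptor of the 14-3-3 family, Ctsd (0.289), the lysosomal protease cathepsin D, Mrpl17 (0.287), a mitochondrial ribosomal protein, Crabp2 (0.287), a retinoic acid carrier, and Slc25a4 (0.28), a mitochondrial ADP/ATP carrier.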

How the data were processed

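Libraries of single cells were made by Smart-seq2 with modifications, per the labels' protocols. The authors deposited expected counts per gene and cell, made with STAR and RSEM on mm10 (GRCm38) per the submitters' processing notes; versions and settings: not given in the sources used here. A share of 21.5% of values above 0 had decimals (tolerance 1e-06), since RSEM divides reads between similar genes. Without molecular identifiers a count is a read. Intervals for shares of cells cover the sampling of cells within a mouse only. Symbols, coordinates and exon lengths came from GENCODE M21 for 54156 of 54247 IDs; unmatched IDs held 0.000107% of the counts. No 2 cells were identical (0 pairs), no cell was left out, and no doublet caller was run on these singly sorted wells.

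For the genotype labels, expected counts were summed over the cells of a mouse, rounded to whole numbers and tested with edgeR 4.0.16 (R 4.3.3): TMM scaling, filterByExpr, quasi-likelihood test, two-sided, Benjamini-Hochberg adjustment, threshold 0.05, 2 residual degrees of freedom. Levels are TMM-scaled CPM of these sums, except marker sums, Sirt6 and values per plate or cell, which are plain CPM. DESeq2 1.42.0 was an alternative.

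For co-variation, log2(CPM + 1) per cell was taken for genes with a count in 20% or more of each mouse's cells, and linear trends on log10 total counts and detected genes were removed within each mouse. Correlations with a score became Fisher z, 1 value per mouse, and were tested with limma 3.58.1 (3 residual degrees of freedom), whose p-values rest largely on the spread shared by all genes. Both tests were run on simulated data with known answers.

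The 34 genes and the lists were chosen with earlier results of these data known. Members not overlapping between the labels with a log2 difference of at least 0.5, the 8 highest and 4 lowest for the glycolysis score, the 8 strongest pairs, 4 further pathway genes of at least 10 CPM in 2 mice and 10 partners of the NRF2 target score are named by rule; other genes named singly were chosen after their values were seen. Promoters of Gclc, Gsr, Gsta4, Hmox1 and Prdx6 were not analysed here. Alternatives were other scalings, filters, thinning, the main plate of each mouse, leaving out each mouse, rank correlation, and removing depth, cell cycle, suprabasal or oxidative phosphorylation scores.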

Additional observations from a re-analysis of the deposited data

Results flagged for a closer look

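Pgls, 6-phosphogluconolactonase, correlated with the glycolysis score at -0.06 in KO1 and -0.09 in KO3, against 0.11 in WT1 and 0.06 in WT2, so that both mice labelled Sirt6-/- were negative and both wild-type mice positive (Fisher z difference -0.16). The difference did not pass limma's test (adjusted p = 0.864, unadjusted p = 0.222). Groups of 2 mice are too small for a check of single outlying mice.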

How the results depend on the processing

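The 8 log2 differences of members named by rule kept their direction in 10 of 10 alternatives each, and 0 passed the threshold in any, but their size was not stable: 0.28 to 2.69 for Gpx2, 0.65 to 2.76 for Gclc, 0.08 to 1.44 for Gstm1, 0.15 to 1.43 for Pgd, 0.24 to 1.12 for Cat, 0.58 to 1.59 for Gsta4, 0.30 to 0.97 for Gsto1 and 0.47 to 1.15 for Gstp1. Between the labels DESeq2 called 148 genes and 0 members. Leaving out a mouse gave 16 to 23 members higher and 3 to 6 lower in the mice labelled Sirt6-/-. The median log2 difference was then 0.11 to 0.61. The higher order was also more frequent over all genes with a mouse left out, and its shares are given above. The lower counts are given without a share over all genes, so they cannot be set against genes at large and are not read as a result about the members.

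For the glycolysis score, leaving out a mouse gave 45 to 84 genes and 1 to 4 members called, and 0 genes for the genotype difference. Without removal of depth trends 2273 genes, 17 members and 89 differences were called, the mean pairwise correlation was 0.117 (0.032 over all genes), and Txnrd1 (0.11) and Gclm (0.01) changed sign. Removing S and G2/M scores left 53 genes and 2 members. Rank correlation called 418 genes and 0 differences. The 50% detection filter left 3 members and 1 difference, and the main plate of each mouse gave 15 differences. Of 2 alternatives chosen after seeing the data, removing the suprabasal score left 68 genes, 0 members and 11 differences, and removing the oxidative phosphorylation score left 2 members and 0 differences. The cause was not tested in any case. Members called for a genotype difference stayed at 0 in each alternative. Leaving out a mouse leaves a label with 1 mouse, assumed to vary like the others.

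No paired analysis was possible because the labels share a single replicate number. With 2 mice per label, precision is limited by mice and not by reads.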
